A study of Sus scrofa with 2 samples.

Results

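The regions described here are the ZBTB16 CUT&Tag peaks that the deposited annotation placed in a 5′ UTR, the transcribed but untranslated leader of an mRNA. Every peak whose annotation began with 5′ UTR was taken, in both peak lists, which gave 803 of 10273 peaks in replicate 1 and 636 of 7301 in replicate 2, or 1439 of 17574 in all. The choice used the annotation alone and no measured strength. Both libraries belong to 1 group, wild-type (WT) immature spermatogonia from pig testis, and each was made from 100000 cells. The labels do not say whether the 2 libraries came from separate animals or cultures. The lists were called on each library separately, and no control, knockdown or expression values were used here, so the comparisons below are between libraries and between peak classes.

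ZBTB16, also known as PLZF, is a BTB-domain zinc finger protein that acts mainly as a transcriptional repressor. It marks undifferentiated spermatogonia and is needed in mice to keep the spermatogonial stem cell pool. In CUT&Tag an antibody brings the Tn5 transposase to chromatin near the target protein, and the enzyme inserts sequencing adapters there, so that a peak is a stretch of genome where more fragments were recovered than in its surroundings. A 5′ UTR often starts at the transcription start site (TSS) and may be split by introns, so its later exons can lie far inside the gene.

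The annotation determines much of what this class is. Promoter peaks in replicate 1 lay over the TSS or up to 2995 bp upstream of it, and none began downstream. A peak that starts even 1 bp inside the transcript therefore goes to another class. Of the 219 peaks of replicate 1 whose nearest edge was 1 to 50 bp downstream of the assigned TSS, 190 (86.8%) were 5′ UTR peaks and 28 were exon peaks. The share of 5′ UTR peaks was 40.5% at 200 to 1000 bp and 3.91% beyond 3000 bp, where 622 of 1485 peaks were intronic. In replicate 2 these shares were 85.0%, 48.8% and 4.48%.

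Most 5′ UTR peaks lay close to the start of the gene. The nearest edge was a median of 161 bp downstream of the TSS in replicate 1 (quartiles 51 and 705.5 bp) and 125.5 bp in replicate 2 (47 and 547.5 bp). Within 200 bp lay 424 peaks (52.8%) of replicate 1 and 366 (57.5%) of replicate 2, and within 1000 bp lay 643 (80.1%) and 533 (83.8%). Summits, the point of highest signal, were farther in, at a median of 442 and 388.5 bp. A tail of 58 peaks (7.22%) and 41 peaks (6.45%) began more than 3000 bp downstream, the farthest at 81443 and 81385 bp, both at AMER2. In 10 peaks of replicate 1 and 4 of replicate 2 the distance was negative, so that the 5′ UTR label there came from a transcript other than the one whose TSS was measured. One such peak was at DSCC1, which encodes a subunit of an alternative clamp loader, with deposited distances of -14063 and -14356 bp from the assigned TSS in the 2 libraries.

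**Figure D1:**
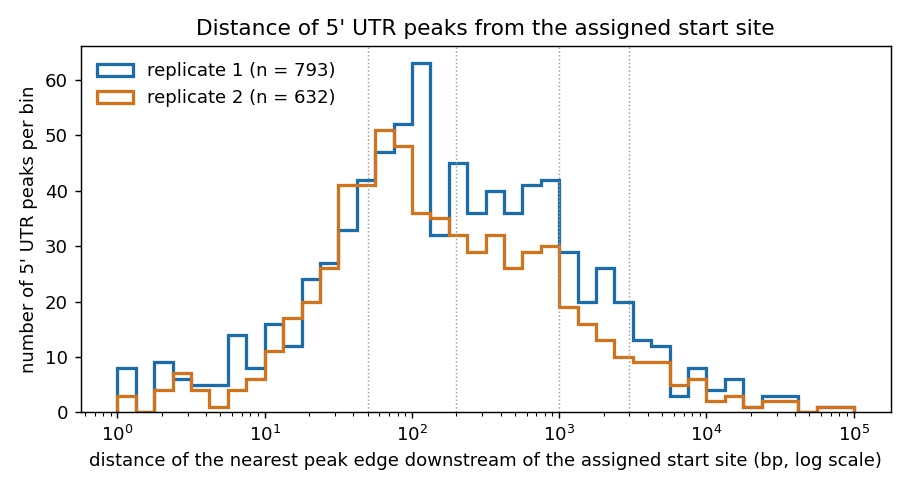
Number of 5′ UTR peaks (y axis) by distance of the nearest edge downstream of the assigned start site (x axis, bp, log scale), for replicate 1 (793 peaks) and replicate 2 (632 peaks); peaks with a negative distance are left out and dotted lines mark 50, 200, 1000 and 3000 bp. In both libraries more than 52% of all 5′ UTR peaks lie within 200 bp, and a thin tail reaches to 81443 bp.

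The peaks were placed on coding genes. The assigned transcript was a coding RefSeq model for 770 peaks (95.9%) of replicate 1 and 617 (97.0%) of replicate 2, and the whole peak lay within the span of the assigned transcript for 789 and 627 peaks. These were 797 and 631 genes, nearly all with a single 5′ UTR peak. Genes with 2 of them numbered 6 in replicate 1 (AMER2, ING1, LOC100620238, PDE4C, PSD2 and ZC3H10) and 5 in replicate 2 (FAM222B, ING1, PDE4C, ZNF213 and ZNF263). Chromosome X carried 16 in each library and unplaced scaffolds carried 10 in each. The end of another named protein-coding gene lay within 1000 bp of 72 peaks (8.97%) and 65 peaks (10.2%), where the signal could belong to either gene.

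Strength was given in the lists as fold enrichment over the local background, the authors' own value for each peak. The median fold of 5′ UTR peaks was 4.81 in replicate 1 (quartiles 4.13 and 5.61, range 2.61 to 11.6) and 4.93 in replicate 2 (4.35 and 5.71, range 2.74 to 10.6). Behind these folds stood a median of 15 and 13.5 fragments at the summit, as recovered from the deposited fold and p-value of each peak. Median widths were 454 and 427 bp. The strength was thus modest and rested on few fragments: 1 peak in replicate 1, over LOC102160746 on an unplaced scaffold, held 295 fragments at a fold of only 2.85, and the next highest was CNOT3 with 95.

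Promoter peaks lying over the TSS were stronger and wider, with median folds of 5.48 and 5.34, 19 and 16 fragments and widths of 633 and 554 bp. A wide peak near a TSS is more likely to cross it and so to be labelled a promoter peak. The classes thus differ in width partly by definition, and strength was not compared at like width. Each list was then split at its own median fold (4.98 in replicate 1 and 5 in replicate 2). At or above it lay 44.2% of 5′ UTR peaks and 65.5% of TSS-spanning promoter peaks in replicate 1 (two-sided Fisher's exact test, odds ratio 0.418, Benjamini-Hochberg adjusted p = 5.83e-29 over 10 tests). In replicate 2 the shares were 47.6% and 61.7% (odds ratio 0.565, adjusted p = 9.21e-11, same exact test). The 5′ UTR peaks were in turn stronger than exon peaks, of which 34.8% and 34.7% reached the median (adjusted p = 3.20e-04 and 4.77e-05, Fisher's exact test), and than intron peaks, with 26.4% and 25.9% (adjusted p = 1.54e-15 and 7.67e-16, same exact test). Against promoter peaks wholly upstream of the TSS the difference passed in replicate 1 (37.7%, adjusted p = 0.00567, Fisher's exact test) and did not in replicate 2 (44.0%, odds ratio 1.16, adjusted p = 0.185). Neighbouring peaks share a library and are not independent, so these and later p-values compare these lists only. In the top 10% of each list by fold were 49 (6.10%) and 39 (6.13%) of the 5′ UTR peaks.

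The strongest 5′ UTR peak present in both libraries lay in CNOT3, which encodes a subunit of the CCR4-NOT deadenylase complex that shortens mRNA tails. On Sscrofa11.1 it spanned chromosome 6, 55991290 to 55992206, on the minus strand gene, 934 bp downstream of the TSS. It had a fold of 10.3 with 95 fragments in replicate 1 (exact Poisson limits of 76.9 and 116 at 95% confidence), and a fold of 10.6 with 73 fragments in replicate 2. The peak began at the same base in both libraries and ended at 55992208 in replicate 2, and the summits were 43 bp apart. No promoter peak was called at CNOT3 in either library.

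ITFG2, a subunit of the KICSTOR complex that restrains mTORC1, had the highest fold of any 5′ UTR peak of replicate 1, at 11.6 (71 fragments, chromosome 5, 67305003 to 67305874, 323 bp downstream). In replicate 2 the same site had a fold of 8.67 with 41 fragments, 335 bp downstream. THAP1, a zinc finger transcription factor, followed with 9.60 and 9.05 (47 and 42 fragments, 421 and 396 bp downstream, chromosome 17, 11772161 to 11772900). PHLPP1, a phosphatase that acts on AKT, had folds of 8.71 and 8.27 with its nearest edge 552 and 526 bp downstream. Each of these peaks had nearly the same near edge in both libraries.

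The next strong peaks shared by both libraries lay in genes of varied function. RBM15, which brings the N6-methyladenosine writer to RNA, had folds of 8.26 and 8.18 with 62 and 46 fragments, 4467 and 4254 bp downstream of its assigned TSS. STIP1, the HSP70 and HSP90 co-chaperone also called HOP, had 8.23 and 9.10 at 13549 and 13634 bp, with summits 8 bp apart. LRIF1, a partner of the heterochromatin protein SMCHD1, had 8.17 and 9.19 at 117 and 151 bp. ZNF740 had 9.90 and 7.99 with the same near edge, 537 bp downstream, and the same summit in both libraries, although an end of CSAD also lay within 1000 bp. ZBTB3, a BTB zinc finger gene of the same broad family as ZBTB16, had 7.39 and 7.46 at 222 and 245 bp. SMDT1, part of the mitochondrial calcium uniporter, had 9.37 and 8.06 at 1 and 79 bp, beside an end of FAM109B.

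Of the 15 strongest shared peaks the other 5 were GTPBP1, SETD9, SAC3D1, MSRA and ATP9B. Their folds ran from 7.11 (MSRA, replicate 2) to 8.59 (ATP9B, replicate 2). GTPBP1, a GTP-binding protein, had 70 and 49 fragments and summits 3 bp apart, 1615 and 1655 bp downstream of its TSS. It was the one gene of the 15 with a separate promoter peak in the same library, in replicate 1 alone, at a fold of 2.81.

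**Figure D2:**
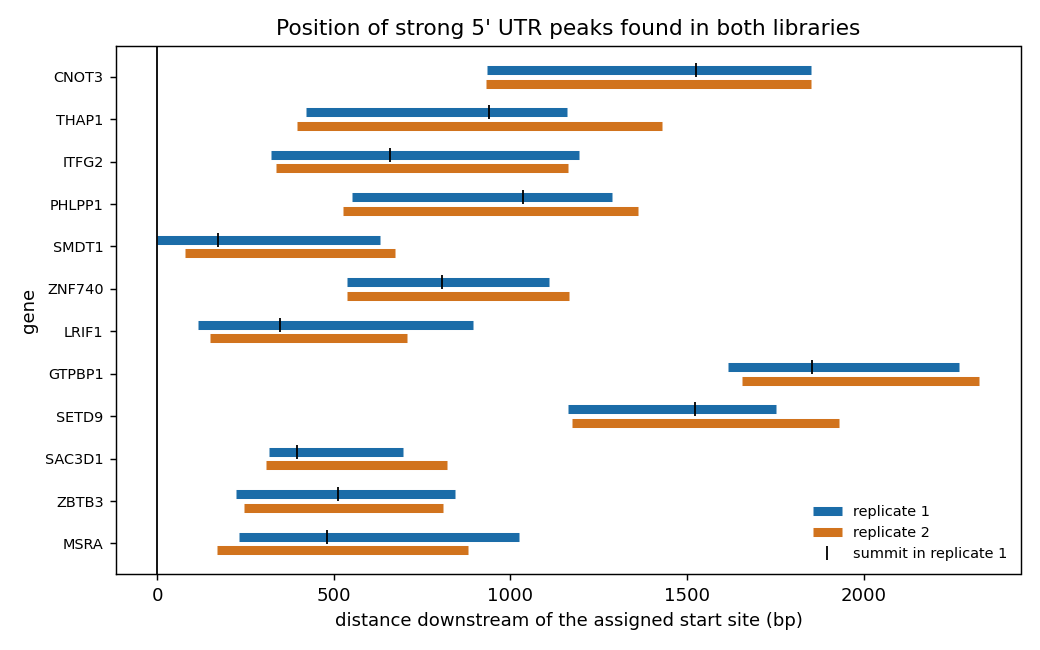
Extent of 12 of the 15 strongest shared 5′ UTR peaks relative to the assigned start site (x axis, bp downstream; vertical line, start site), with blue bars for replicate 1, orange bars for replicate 2 and a tick at the replicate 1 summit; RBM15, STIP1 and ATP9B lie beyond the plotted range. The bars of each gene overlap between libraries and none crosses the start site, which SMDT1 approaches to 1 bp in replicate 1.

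Recurrence was counted first as an overlap of at least 1 bp with any peak of the other library. Of the 803 peaks of replicate 1, 411 recurred, or 51.2% (95% Wilson interval 47.7 to 54.6), beside 53.2% of all peaks in that list. Of the 636 peaks of replicate 2, 495 recurred, or 77.8% (74.4 to 80.9), beside 75.0% of all peaks. Both shares were near the background of their lists. Replicate 1 has the longer list, and its share is the lower one in every class.

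The partner in the other library often carried another label. Of the 411 recurring peaks of replicate 1, 294 met a 5′ UTR peak, 85 a TSS-spanning promoter peak, 16 an exon peak, 12 an intron peak, 3 an upstream promoter peak and 1 a 3′ UTR peak. Of the 495 of replicate 2, 294 met a 5′ UTR peak, 185 a TSS-spanning promoter peak, 8 an exon peak, 7 an intron peak and 1 an upstream promoter peak. Thus 20.7% and 37.4% of recurring 5′ UTR peaks were TSS-spanning promoter peaks in the other library. No 5′ UTR peak of either library met more than 1 peak of the other.

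The change of label followed the distance to the TSS, in part by definition. A 5′ UTR peak can meet a TSS-spanning promoter peak only where that peak extends to it. Such promoter peaks ended a median of 306 bp (replicate 1) and 279 bp (replicate 2) downstream of the TSS. A wide peak is also more likely to cross the TSS. In replicate 2, 104 of the 164 peaks that began 1 to 50 bp downstream (63.4%) met a TSS-spanning promoter peak, against 72 of 202 (35.6%) at 51 to 200 bp, 9 of 167 (5.39%) at 200 to 1000 bp and none of the 58 and 41 peaks in the bands farther out. In replicate 1 the shares were 23.7%, 16.2% and 0.913%, and none of the 92 and 58 peaks farther out did so. The near edge of the peaks that changed label lay a median of 48 bp (replicate 1) and 44 bp (replicate 2) from the TSS, against 379.5 and 415 bp for peaks that kept the 5′ UTR label. Their partners were usually wider: the promoter peak exceeded the 5′ UTR peak in width in 60 of 85 and 153 of 185 pairs, with median widths of 507 against 412 bp and 597 against 393 bp. The summits of these pairs were a median of 115 and 120 bp apart, close to the 101.5 bp between summits of pairs that were 5′ UTR peaks in both.

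**Figure D3:**
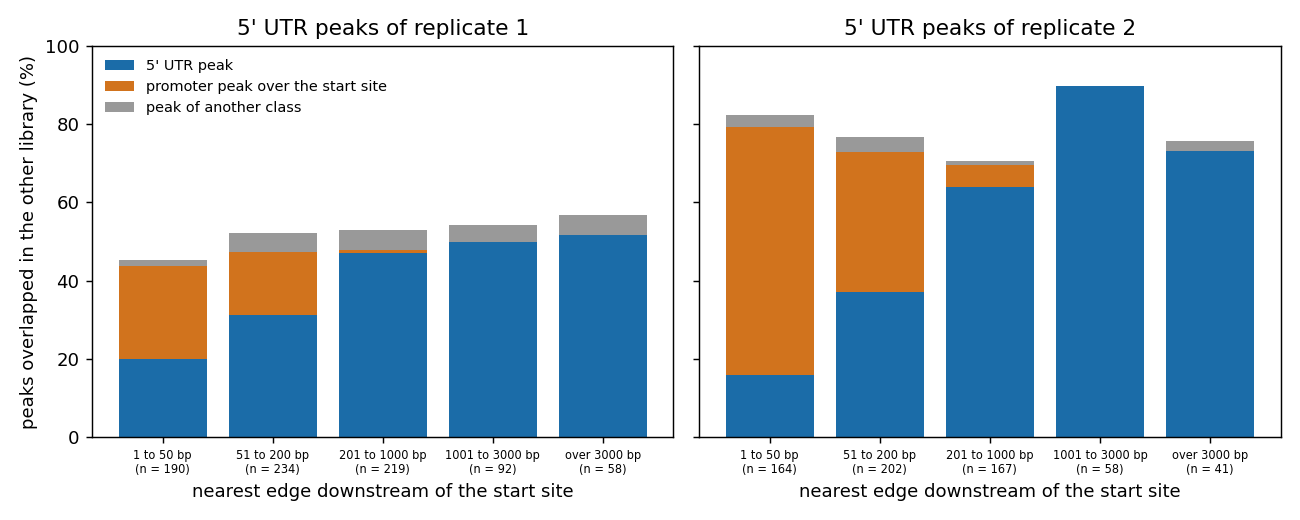
Share of 5′ UTR peaks overlapped by a peak of the other library (y axis, %) by distance of the nearest edge from the start site (x axis), with replicate 1 at left and replicate 2 at right, coloured by the class of the overlapping peak. The orange segment, promoter peaks over the start site, falls from 63.4% to 0 with distance in replicate 2 and from 23.7% to 0 in replicate 1. That fall follows in part from the class definition.

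The 5 strongest peaks that changed label lay in RALGAPA1, DYNC2H1, FOXP3, PGBD2 and THG1L. RALGAPA1, a subunit of a GTPase-activating complex for RAL proteins, had a 5′ UTR peak 2 bp downstream of the TSS in replicate 1 (fold 7.79, 32 fragments). In replicate 2 the peak there crossed the TSS and was a promoter peak (fold 9.35, 29 fragments), with its summit 59 bp away. DYNC2H1, the heavy chain of the dynein that returns cargo in cilia, began 16 bp downstream in replicate 1 (fold 7.87) and crossed the TSS in replicate 2 (5.68). FOXP3, best known as the regulator of regulatory T cells, began 33 bp downstream in replicate 2 (fold 8.28, 31 fragments) and crossed the TSS in replicate 1 (10.7, 48 fragments). This site on chromosome X, numbered 19 in the lists, also lay within 1000 bp of an end of PPP1R3F. PGBD2 and THG1L showed the same change of label, at folds of 8.01 and 7.46 in replicate 2 against 8.80 and 8.20 in replicate 1.

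Peaks just inside and just outside this line, given as a description, had median folds close to each other. The 60 members of replicate 1 that began 1 to 10 bp downstream had a median fold of 4.98, and the 101 TSS-spanning promoter peaks that reached only 1 to 10 bp upstream had 5.08. In replicate 2 the values were 5.37 for 33 members and 5.03 for 96 promoter peaks.

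Recurrence was then compared between classes with two-sided Fisher's exact tests and Benjamini-Hochberg adjustment over 10 tests. The 5′ UTR peaks recurred less often than TSS-spanning promoter peaks, of which 71.2% (replicate 1) and 89.7% (replicate 2) recurred (odds ratios 0.424 and 0.402, adjusted p = 5.55e-28 and 3.93e-15, Fisher's exact test). They recurred more often than intron peaks (22.6% and 39.4%, odds ratios 3.58 and 5.39, adjusted p = 4.20e-38 and 7.74e-46, exact test) and distal intergenic peaks (25.3% and 41.9%, odds ratios 3.09 and 4.87, adjusted p = 5.02e-32 and 5.12e-42, exact test). The same held against exon peaks (35.4% and 63.9%, odds ratios 1.92 and 1.99, adjusted p = 2.65e-09 and 1.31e-06, exact test), although in replicate 2 the exon difference did not pass when summits within 100 bp were required (odds ratio 1.28, adjusted p = 0.0906). Against upstream promoter peaks (46.0% and 72.5%) the odds ratios were 1.23 and 1.33 (adjusted p = 0.0285 and 0.0232, Fisher's exact test). That small difference depended on the rule for overlap: with summits within 100 bp the odds ratios were 0.901 and 0.863 (adjusted p = 0.336 and 0.214, exact test).

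Height moved with recurrence. From the lowest to the highest quartile of fragments in the list, the share of 5′ UTR peaks that recurred was 29.2%, 43.3%, 61.3% and 89.5% in replicate 1 and 61.4%, 71.0%, 90.5% and 100% (117 of 117) in replicate 2. Within quartiles the 5′ UTR share was above that of exon peaks in 8 of 8 comparisons, 4 of them past the threshold of 0.05 (Fisher's exact test, adjusted over 40 tests). It was likewise above that of upstream promoter, intron and distal intergenic peaks in 8 of 8, with 3, 5 and 2 past the threshold. The smallest of these differences was 71.01% against 70.97% of upstream promoter peaks, in quartile 2 of replicate 2. In quartile 4 of replicate 2 the 5′ UTR share was 100%, so no class could lie above it there. In the lowest quartile 29.2% of 5′ UTR peaks of replicate 1 recurred beside 9.97% of intron peaks (odds ratio 3.73, adjusted p = 1.44e-10) and 61.4% of replicate 2 beside 21.4% (odds ratio 5.84, adjusted p = 5.36e-21, Fisher's exact test). Against TSS-spanning promoter peaks, 3 of 8 within-quartile comparisons passed, all with the 5′ UTR share lower.

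**Figure D4:**
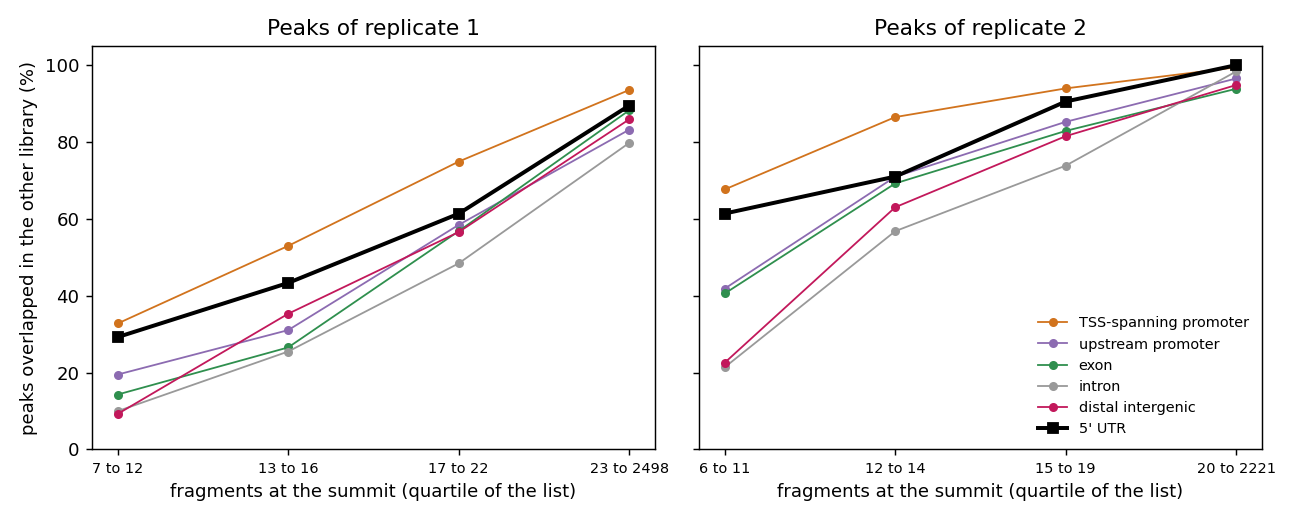
Share of peaks overlapped by a peak of the other library (y axis, %) by quartile of summit fragments in the list (x axis), for 5′ UTR peaks (black squares) and 5 other classes (coloured circles), with replicate 1 at left and replicate 2 at right. In the lowest quartile 5′ UTR peaks sit near TSS-spanning promoter peaks (29.2% and 32.8% in replicate 1) and above the other classes, and all lines rise with height.

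The 294 pairs that were 5′ UTR peaks in both libraries had like strengths. All but 1 were assigned to the same gene. Across these pairs the fold of replicate 1 was 1.01 times that of replicate 2 at the median (quartiles 0.878 and 1.15), and 282 pairs lay within 1.5 times of each other. Fragments were 1.20 times higher in replicate 1 (quartiles 1.04 and 1.45). As a description across pairs, which share 2 libraries and a selection for being called in both, Pearson's r of the log2 fold was 0.66 and Spearman's rho of fragments was 0.80. In 8 pairs the fold was at least 8 in both libraries. Boundaries were looser than strengths: 146 pairs (49.7%) had summits within 100 bp, 53 had near edges within 20 bp, and 250 shared at least 50% of both peaks.

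**Figure D5:**
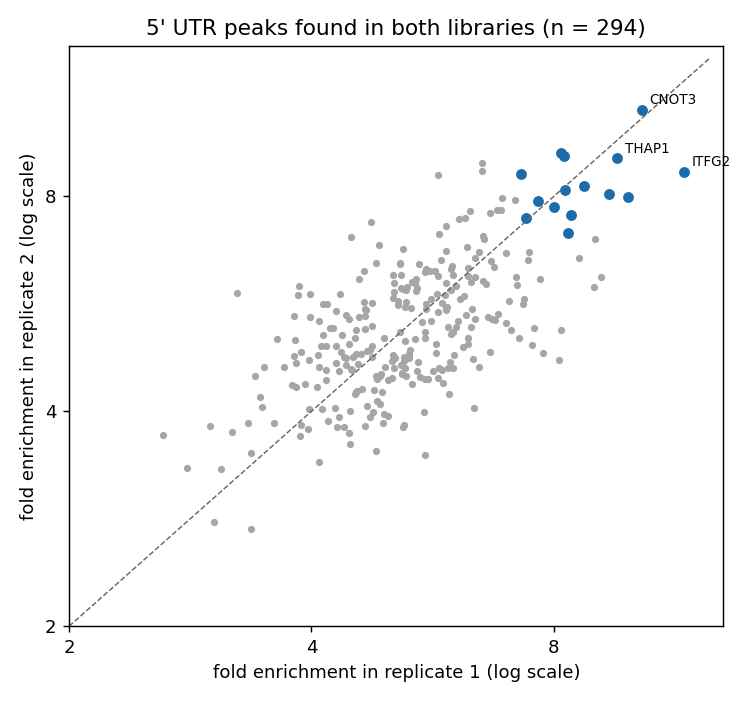
Fold enrichment in replicate 1 (x axis, log scale) against replicate 2 (y axis, log scale) for the 294 sites with a 5′ UTR peak in both libraries; blue points are the 15 strongest by the lower of their ranks in the lists, 3 of them named, and the dashed line marks equal folds. Points lie around the line, 282 of 294 of them within 1.5 times of it.

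Some well enriched 5′ UTR peaks were found in 1 library alone. In replicate 1 these were led by BTAF1, a TATA-binding protein regulator (fold 7.63, 18 fragments, 30 bp downstream), BLOC1S2 (7.43, 19 fragments), ABCD4 (7.36, 19 fragments) and SRP19 (7.30, 25 fragments). ABCD4 had a promoter peak in replicate 2 that did not overlap. In replicate 2 they were led by SF3B1, a core spliceosome subunit (7.91, 19 fragments, 18033 bp downstream), VPS13D (7.21, 19 fragments), TOX (6.27, 14 fragments) and PLPP7 (6.07, 16 fragments). These 8 sites held 14 to 25 fragments each. The unmatched peaks as a whole had a median of 13 fragments in replicate 1 (392 peaks) and 11 in replicate 2 (141 peaks), against 18 and 16 in the 5′ UTR pairs.

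Of the 58 peaks that began beyond 3000 bp in replicate 1, 33 recurred (56.9%, beside 53.2% of all peaks) and 30 met a 5′ UTR peak. Of the 41 in replicate 2, 31 recurred (75.6%, beside 75.0% of all peaks) and 30 met a 5′ UTR peak. Both shares of recurrence were near the background. None of these peaks had an end of another named protein-coding gene within 1000 bp. PABPC1, the cytoplasmic poly(A)-binding protein, had folds of 7.69 and 6.12 with 39 and 25 fragments, 70754 and 70798 bp from the assigned TSS and with summits 37 bp apart. AMER2, a WNT regulator, had the farthest peak at 81443 and 81385 bp (folds 3.49 and 4.61, 10 and 14 fragments), and GLRA3, a glycine receptor subunit, lay at 40617 and 40653 bp (6.37 and 4.04). MYH9, the non-muscle myosin heavy chain, had its peak at 32475 and 32508 bp (4.54 and 4.81). PRELID3A had 8.13 and 4.72 at 28158 and 27957 bp, the least even pair of the 5. Of the peaks beyond 3000 bp, 54 of 58 in replicate 1 and 37 of 41 in replicate 2 lay wholly within the span of the assigned transcript. Whether an unannotated start site lies nearby was not tested.

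The widest shared peaks were in STK35, a kinase gene (1075 and 1040 bp, folds 6.54 and 6.97), CUNH14orf80 on an unplaced scaffold (1008 and 1183 bp), RBM15 (950 and 1153 bp), NUDT8 (990 and 947 bp) and SRGAP3 (1081 and 932 bp, beside an end of SETD5). None of the 5 had a separate promoter peak.

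A second peak at the promoter of the same gene was uncommon. In replicate 1, 62 of the 797 genes with a 5′ UTR peak (7.78%, 95% Wilson interval 6.12 to 9.85) also had a promoter peak in that library, beside 32.8% of the 16491 named protein-coding genes. In replicate 2 it was 29 of 631 (4.60%, 3.22 to 6.52) beside 24.9%. A peak that begins just inside a gene leaves little room for another at the same TSS, and a broad peak over the TSS counts as a promoter peak only, so the classes partly exclude each other at 1 site. A promoter peak in the other library alone was present for a further 85 genes (10.7%) and 191 genes (30.3%), which includes the sites that changed label.

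Genes with an exon or intron peak gave a further comparison, chosen after the data were seen. It was not matched for position. Intron peaks lay a median of 5069 and 6321 bp from the assigned TSS in the 2 libraries, and exon peaks 817 and 744 bp. More of them than of 5′ UTR peaks thus left room for a promoter peak, and the differences over all distances follow in part from that. Leaving out genes in both classes, a promoter peak was found at 7.91% of 5′ UTR genes and 20.2% of intron genes in replicate 1, and at 4.53% and 16.7% in replicate 2. The odds ratios were 0.339 and 0.237 (adjusted p = 1.45e-12 and 4.45e-12, two-sided Fisher's exact test over 8 tests). Against exon genes the odds ratios were 0.673 and 0.526 (adjusted p = 0.0537 and 0.0428, same exact test). Among peaks beyond 1000 bp none of the 4 comparisons passed: 11.6% of 5′ UTR genes against 19.3% of intron genes in replicate 1 and 8.70% against 17.4% in replicate 2 both had an adjusted p of 0.0537 (Fisher's exact test).

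Where both kinds were present they were mostly assigned to different TSS positions. Some of these positions lay close together and still counted as different. At FCHO2 in replicate 1 the distances were 10 and -281 bp, with a gap of 302 bp between the peaks. Of the 62 co-occurrences in replicate 1, 15 were assigned to the same TSS, and of the 29 in replicate 2, 8 were. The gap between the peaks was a median of 8852 bp in replicate 1 and 6356 bp in replicate 2, and it was at most 1000 bp in 17 and 9. The promoter peak was the stronger in 43 of 62 and 17 of 29.

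In 11 genes both kinds appeared in both libraries: ACAA1, BRD2, LMNA, MAD2L1BP, MYH9, PDLIM7, PRADC1, RTN4, SESN2, TNNI3 and VRK3. ACAA1, a peroxisomal thiolase, had 5′ UTR folds of 5.99 and 6.21 and promoter folds of 7.29 and 6.47, separated by 43733 and 44210 bp. An end of MYD88 lay near its wider 5′ UTR peak in replicate 1. VRK3, a kinase family member, had 6.005 and 5.16 in the 5′ UTR and 8.54 and 7.26 at the promoter. LMNA, which encodes lamins A and C, had the opposite order, with 5.23 and 5.60 in the 5′ UTR and 4.35 and 4.93 at a promoter about 6353 and 6356 bp away. MYH9 had 4.54 and 4.81 in the 5′ UTR against 9.52 and 6.57 at the promoter, 32423 and 32248 bp apart and on the same assigned TSS. PRADC1 was the other gene with a shared TSS, with a gap of 467 and 620 bp, folds of 4.66 and 5.21 downstream and 4.53 and 3.89 upstream.

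A 5′ UTR peak in both libraries was found for 293 genes, which is 36.8% of the genes of replicate 1 and 46.4% of those of replicate 2. Among named protein-coding genes, 6.42% had one in either library and 1.67% in both, and the pathway lists are read beside these shares. The lists were written from general knowledge and are not complete. They describe which of their own genes carry such a peak, with no test of the lists.

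No gene of the germ cell lists had a 5′ UTR peak in both libraries, beside 1.67% of named protein-coding genes. Lists this short cannot set that count apart from the share. Of 35 measured genes of undifferentiated spermatogonia 1 (2.86%) had a 5′ UTR peak in either library, beside 6.42% of named protein-coding genes. It was BCL6B, a GDNF-responsive transcription factor of spermatogonial stem cells, in replicate 1 only (fold 3.33, 20 fragments, 558 bp downstream). Of 25 genes of differentiation and meiotic entry 4 (16.0%) had a 5′ UTR peak in 1 library. DAZL, a germ cell RNA-binding protein, had 6.13 with 16 fragments, 889 bp downstream, in replicate 1. SYCP2, a synaptonemal complex component, began 71 bp downstream in replicate 2 (6.10) and was a promoter peak in replicate 1 (7.21). YTHDC2, a helicase needed for meiotic entry, changed label the other way, with 4.69 at 61 bp in replicate 1 and a promoter peak of 5.06 in replicate 2. MSH4, a meiotic crossover factor, had 3.43 with 7 fragments in replicate 1. Of the 26 measured genes on the somatic testis list GATA4 alone (3.85%) had one, in replicate 1 (4.05, 16 fragments). That count covers the listed genes only. VIM, which was not counted in it, had a 5′ UTR peak in both libraries (folds 6.318 in replicate 1 and 6.065 in replicate 2).

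Among signalling lists, that of mTORC1 had the highest share, with 4 of 36 genes in either library (11%), beside 6.42% of named protein-coding genes. In both libraries there were 3 (8.33%, beside 1.67%). The counts of this list are few and were not tested. ITFG2, described above with a strong peak in both libraries, was not counted in that list. NPRL3, part of the GATOR1 complex that inhibits mTORC1, had 5.41 and 4.56 with the same near edge 391 bp downstream, beside an end of HBQ1. SESN2, the leucine sensor sestrin 2, had 4.78 and 4.28 at 2755 and 2919 bp, and RPTOR, the scaffold subunit of mTORC1, had 3.93 and 4.37 at 177 and 344 bp. TFEB, the lysosomal transcription factor, had 4.15 in replicate 1, where the peak of replicate 2 was labelled intronic (3.98). Of 52 GDNF, FGF and MAPK genes 2 (3.85%) had one in either library. DUSP7, an ERK phosphatase, had it in both (4.17 and 4.43) and ETV4 in replicate 1 alone (4.75). RNF43 was the single one (2.56%) of the 39 measured genes on the WNT list, in replicate 2 (4.62). AMER2, described above with a peak in both libraries, was not counted in that list.

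Chromatin modifiers numbered 6 of 97 in either library (6.19%), near the 6.42% of named protein-coding genes. In both libraries there were 4 (4.12%, beside 1.67%), namely ING1, KDM2A, BRD2 and SETD1A. ING1, a reader of trimethylated H3K4, had 2 separate 5′ UTR peaks at 2 start sites in each library. On chromosome 11 they lay at 77270301 to 77271112 and 77272466 to 77273260 in replicate 1, with folds of 3.59 and 5.45 (38 and 57 fragments). In replicate 2 the folds were 3.86 and 4.47 (29 and 33 fragments), so the downstream site was the higher in both. An end of CARS2 lay near the upstream site. KDM2A, a demethylase that binds CpG islands, had 4.81 and 4.48 with the same summit, 1824 bp downstream, and a separate promoter peak in replicate 1. BRD2, a bromodomain protein, had 4.08 and 3.40 with summits 585 bp apart within nearly the same boundaries. SMARCB1 had a peak 1 bp downstream in replicate 1 only (5.13).

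Translation factors had 6 of 46 (13%) in either library, beside 6.42% of named protein-coding genes. In both libraries there were 2 (4.35%, beside 1.67%), PABPC1 and the initiation factor subunit EIF3E (7.34 and 5.66 at 180 and 199 bp). EIF3D and EIF2B5 had theirs in replicate 1 only (4.53 and 4.67). Of 76 ribosomal protein genes 4 (5.26%) had one in either library. RPL23A and RPS10 had a 5′ UTR peak in replicate 2 that met a promoter peak in replicate 1. Of 76 RNA processing genes 5 (6.58%) had one and CNOT3 alone (1.32%) had it in both. The ribosomal and RNA processing shares in either library were near that of all named protein-coding genes.

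The DNA repair list had 7 of 76 genes in either library (9.21%, beside 6.42% of named protein-coding genes). It had 1 in both (1.32%, beside 1.67%), OGG1, the 8-oxoguanine glycosylase (6.70 and 5.39 at 109 and 23 bp, summits 6 bp apart). ATR, the replication stress kinase, had 4.82 in replicate 1 and a promoter peak in replicate 2 (4.07), and XRCC3 changed label the other way (4.07 in replicate 2 and 5.16 at the promoter in replicate 1). Cell cycle genes had 5 of 58 (8.62%) and 1 in both (1.72%), CDC6, the replication licensing factor (5.91 and 4.59 at 1813 and 1939 bp). MCM2, RFC2 and CDKN2C had one in a single library. The ubiquitin and proteasome list had 8 of 95 (8.42%) and 2 in both (2.1%). These were the proteasome subunit PSMA3 (5.81 and 5.68 at 1202 and 1148 bp) and the conjugating enzyme UBE2N (5.55 and 5.57). The list of mitochondrial respiration and import held 87 genes, of which 62 were measured. Of these NDUFB7 alone (1.61%) had one, in replicate 1 (3.91), where it met a promoter peak of replicate 2. SMDT1, described above, was not counted in that list.

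Genes whose symbol begins with ZNF were added as a list after the member genes had been seen, so their count is no independent evidence. Of 257 such genes 30 (11.7%) had a 5′ UTR peak in either library and 13 (5.06%) in both, beside 6.42% and 1.67% of named protein-coding genes. Besides ZNF740, those with the highest fold in either library among genes shared by both were ZNF70 (7.76 and 4.83, the latter below the median of its list), ZNF471 (7.44 and 6.51, with summits 14 bp apart) and ZNF330 (6.10 and 7.44, with summits 15 bp apart). ZNF70, ZNF471 and ZNF330 began 942, 867 and 429 bp downstream of the TSS in replicate 1.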

How the data were processed

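CUT&Tag for ZBTB16 was done on 2 libraries of WT immature pig spermatogonia, per the labels. The deposited peak lists, 1 per library, hold the authors' fold (ratio) of signal over background, −log10 p and q, a score within 1 of 10 times −log10 q for at least 99% of peaks, not used further, and an annotation with distance to the TSS. Coordinates are on Sscrofa11.1, the build named in the submitters' processing notes. The aligner, peak caller, control and annotation tool: not given in the sources used here.

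Members, lists and tests were chosen with earlier results of these data known. Fragments at each summit and the background were recovered as the whole number that satisfied both the deposited fold and −log10 p within a relative tolerance of 1e-05, which gave a value for 100% of 5′ UTR peaks; on simulated peaks 99.2% of 388 were recovered. Recovered fragments are not known to be unique molecules, so their intervals cover counting error only. Library totals are not used here. Peaks recurred when they overlapped by at least 1 bp. Class shares were compared by two-sided Fisher's exact tests with Benjamini-Hochberg adjustment. On simulated lists of independent peaks this called 100% of planted differences and 0.450% of unchanged pairs. The planted difference was about that from TSS-spanning promoter peaks in replicate 1 and far larger than that from upstream promoter peaks. The simulation thus does not give the power for small differences, or the rate of false calls among peaks that are not independent. Gene symbols and neighbouring gene ends came from the RefSeq gene table of Sscrofa11.1, where 801 of 803 and 636 of 636 symbols matched. Tests used scipy 1.17.1 under Python 3.11.15, tables pandas 2.3.3 with numpy 2.4.6, and plots matplotlib 3.10.9.

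Named genes were the 15 strongest shared 5′ UTR peaks by the lower within-list fold percentile, the 4 strongest found in each library alone, the 5 farthest, the 5 strongest that met a promoter peak, the 5 strongest with a promoter peak of the same gene in both libraries, the 5 widest, and up to 4 per gene list with all of the germ cell lists. SETD1A, DSCC1, LOC102160746, VIM, FCHO2 and the genes with 2 peaks were chosen for naming once their values had been seen. The planned count of motifs in promoter sequences was not run, because no sequence table was used here. The values of 1 listed ribosomal protein gene are not reported here.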

Additional observations from a re-analysis of the deposited data

How the results depend on the processing

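Of 111 values recomputed under other settings, 87 kept their direction and call or stayed within the spread, 13 moved, 9 lost their call and 2 turned in direction. The recurrence of 5′ UTR peaks was 40.9% (replicate 1) and 58.6% (replicate 2) when at least 50% of both peaks had to overlap, 24.3% and 36.3% with summits within 100 bp, and 60.4% and 65.9% with lists of equal length. The odds ratios against upstream promoter peaks in replicate 1 were 1.14 with reciprocal overlap, 0.901 with summits within 100 bp, 1.20 with −log10 q of at least 2, 1.14 with equal lists and 1.19 for members within 1000 bp. In replicate 2 they were 1.12, 0.863, 1.17 with equal lists, 1.24 within 1000 bp and, in a setting chosen after seeing the data, 1.21 for members beyond 50 bp. None of these passed the threshold, and the cause was not tested. The difference passed among peaks of like height (1.47 and 1.43, adjusted p = 0.00443 and 0.0384, Fisher's exact test) and, in replicate 1, for members beyond 50 bp (1.33, adjusted p = 0.00573, same exact test), for numbered chromosomes in both libraries and for −log10 q of at least 2 in replicate 2. The odds ratio against exon peaks in replicate 2 was 1.28 with summits within 100 bp. The differences from TSS-spanning promoter, intron and distal intergenic peaks kept direction and call under each of these settings, which pool the quartiles of fragments. Within single quartiles 3, 5 and 2 of 8 comparisons passed, and 1 of the 8 against TSS-spanning promoter peaks had the 5′ UTR share higher. Genes with a promoter peak made up 5.65% in replicate 1 when only peaks that reach the TSS counted, and 18.4% and 34.9% when a promoter peak in either library counted. The median distance was 442 and 388.5 bp when summits replaced edges. The 293 genes found in both libraries became 631 to 797 when 1 library was left out, since a single list then decides. No paired analysis was possible because the 2 libraries form 1 group. With a median of 15 and 13.5 fragments a peak, a peak missing from 1 library does not show that binding was absent there.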
